A study of Mus musculus with 8 samples.

Results

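The transcripts described here encode the amino acid transporter families SLC1, SLC3, SLC7, SLC36, SLC38 and SLC43 in N2a, a mouse neuroblastoma cell line. The families were chosen with earlier results of these data known. Members were taken by name, as protein-coding genes with Slc7a11 left out, which gave 42 of the 55414 genes of the deposited table. Of these, 41 are transporters or their heavy chains. The remaining gene, Slc7a6os, matches by name only, because it was named for lying on the strand opposite Slc7a6, and it is described apart. The study holds 8 polyA RNA-seq libraries of N2a, 4 labelled control and 4 labelled Nrsn2 OE, the latter from cells transiently transfected to overexpress Nrsn2. One protocol is given for both groups, with collection 24 hours after transfection. Nrsn2 encodes neurensin-2, a small neuronal vesicle membrane protein that the labels call stress-responsive. The labels name no mock or empty-vector treatment for the control cells, no sorting of transfected cells and no separate cultures for the replicates. The p-values therefore measure only the spread between these libraries, which may be technical.

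Amino acids cross membranes through carriers that differ in what they take, what drives them and where they sit. SLC1 carriers use the sodium gradient and move glutamate or small neutral amino acids. Several SLC7 proteins, the light chains, reach the surface only when disulfide-linked to an SLC3 heavy chain, and exchange large neutral or cationic amino acids. Others of SLC7 carry arginine and lysine alone. SLC38 carriers take up glutamine and other small neutral amino acids with sodium, or work at the lysosome. SLC36 includes carriers coupled to protons, and SLC43 carriers let large neutral amino acids flow down their gradient. In neurons and tumour cells these proteins supply glutamine and leucine, and several report amino acid supply to the kinase complex mTORC1.

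Library totals ran from 15347255 to 21395096 counts. Levels are CPM, that is, counts scaled to library size with edgeR's TMM factors. Nrsn2 was at 8.53 ± 1.67 CPM in the control libraries and 161 ± 12 CPM in the Nrsn2 OE libraries (SD, n = 4 each; log2 fold change 4.23 ± 0.11 SE; edgeR adjusted p = 2.89e-15). All 4 Nrsn2 OE libraries lay above all 4 controls (exact permutation test, two-sided, p = 0.0286, the lowest value that 70 arrangements can give). Of 11 markers of neurons and neuroblastoma, 10 were tested, 5 were lower and 2 higher, and Dcx stayed under 1 CPM in every library. Of all tested genes, 16.8% were lower and 18.6% higher. The summed level of these markers was 1130 to 1190 CPM in the control libraries and 917 to 999 CPM in the Nrsn2 OE libraries. The largest fall in mean level was that of Stmn2, from 421 CPM in the control to 301 CPM in the Nrsn2 OE libraries. The means of Tubb3, Gata3 and Chga were higher in the Nrsn2 OE libraries. The part of the lower sum in the results below was not tested. For 5 microglia and macrophage markers the sums were 0.334 to 0.765 CPM in the control libraries and 0.623 to 1.38 CPM in the Nrsn2 OE libraries, and for 5 astrocyte markers 0.765 to 1.2 CPM and 0.446 to 1.35 CPM. For 5 fibroblast markers the sums were 7.26 to 9.12 CPM in the control libraries and 7.00 to 8.23 CPM in the Nrsn2 OE libraries, mostly Pdgfra. For 5 oligodendrocyte markers, 1 of which was lower, they were 14.2 to 17.0 CPM and 11.2 to 13.8 CPM, mostly Mbp.

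Of the 42 genes, 21 passed the count filter and 21 did not. The classical glutamate carriers were nearly silent. Slc1a1, the neuronal glutamate carrier, held 2 counts over all 8 libraries, and the glial carriers Slc1a2 and Slc1a3 held 12 and 11. Slc1a6 held 1 count and Slc1a7, known from retina, 45. Also below the filter were the heavy chain Slc3a1 (26 counts), the light chains Slc7a8 (8), Slc7a9 (13), Slc7a12 (2), Slc7a13 (5) and Slc7a15 (57), and the cationic carriers Slc7a2 (11) and Slc7a4 (10). Slc36a2 (5 counts), Slc36a3 (1), Slc38a4 (3), Slc38a5 (52), Slc38a8 (35), Slc38a11 (3) and Slc43a3 (21) completed them with Slc7a10. Slc7a10, a carrier of small neutral amino acids in the brain, was at 0 in every library, which allows up to 0.14 to 0.195 CPM at 3 counts per library, for counting error only. No fold change is given for these 21 genes.

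Compared per length, 4 of the 21 tested genes stood above the rest. Values here are control means in CPM per kilobase of exon (SD, n = 4). The length is that of all annotated exons of a gene, so exons unused in these cells would lower its value. Slc38a6, an SLC38 member whose substrates are little known, was at 154 ± 10.7 and Slc7a5, the leucine carrier LAT1, at 148 ± 17.7, and their libraries overlapped. Slc3a2, the heavy chain that LAT1 needs, was at 82.6 ± 5.81, and Slc38a2, the system A glutamine carrier SNAT2, at 74.7 ± 5.33, again with overlapping libraries. Then came Slc38a1 (33.3 ± 1.5), Slc1a5 (31 ± 1.94), Slc7a3 (27.6 ± 1.93), Slc1a4 (26.5 ± 2.20), Slc7a1 (23.8 ± 0.826) and Slc36a1 (20.8 ± 1.39). Neighbours in this run overlapped, except Slc7a1 and Slc36a1. Slc7a6 (19.0 ± 1.45), Slc7a14 (17.9 ± 1.13), Slc38a7 (16.3 ± 1.39) and Slc7a6os (14.4 ± 0.991) followed, each overlapping the one before it. Below a gap came Slc36a4 (6.84 ± 0.908), Slc38a10 (4.24 ± 0.140), Slc38a9 (2.24 ± 0.0721) and Slc7a7 (1.38 ± 0.175). The lowest were Slc43a2 (0.757 ± 0.0933), Slc43a1 (0.314 ± 0.110) and Slc38a3 (0.112 ± 0.0813), and from Slc7a6os down no neighbours overlapped but these last 2. The place of Slc38a6 is uncertain: 40.7% of its annotated transcript 31-mers also occur in transcripts of other genes, most often those of Noct, and at least 100 of them in each of 42 genes. Whether reads that fit several genes were counted is not given in the sources used here. For every other tested gene of these families this share was 9.43% or less.

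**Figure D1:**
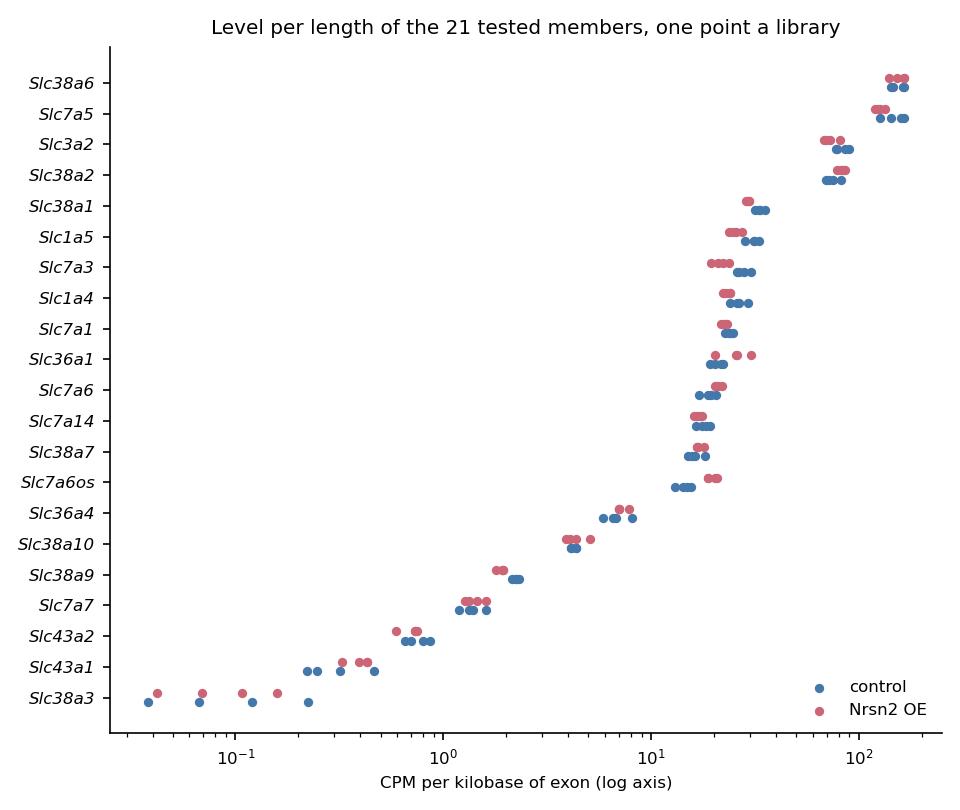
Level of each tested gene in CPM per kilobase of exon (log axis), with 1 point for each of 4 control and 4 Nrsn2 OE libraries. Genes are ordered by their control mean, from Slc38a3 at 0.112 to Slc38a6 at 154, and the groups differ little beside the range between genes.

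With Nrsn2 overexpression, 7 of the 20 tested transporters were lower and 1 higher. The 7 were Slc7a3, Slc1a5, Slc38a9, Slc7a5, Slc38a1, Slc1a4 and Slc3a2, and the 1 was Slc36a1. The changes were small, with log2 fold changes of -0.35 to 0.29. Genes were called at an edgeR adjusted p under 0.05 over all 15187 tested genes, of which 35.4% were called, 18.6% higher and 16.8% lower. The called share of the transporters, 40%, was near that background, with 35.0% lower and 5.00% higher. Their median log2 fold change was -0.08, against -0.00088 for all tested genes. The Nrsn2 OE libraries did not overlap the controls for 4 transporters, all lower, against a background of 32.6% of genes in either direction and 15.4% lower. In the authors' deposited table, the genes of these families with an adjusted p under 0.1 were the same 8 transporters and Slc7a6os. The number lower was 4 without control library 2, control library 4 or Nrsn2 OE library 3, and 2 without Nrsn2 OE library 4. The number higher was 2 without control library 1, and 0 without control library 3, control library 4 or Nrsn2 OE library 2. In bulk libraries such as these, fewer cells with a transcript and less of it per cell cannot be told apart.

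**Figure D2:**
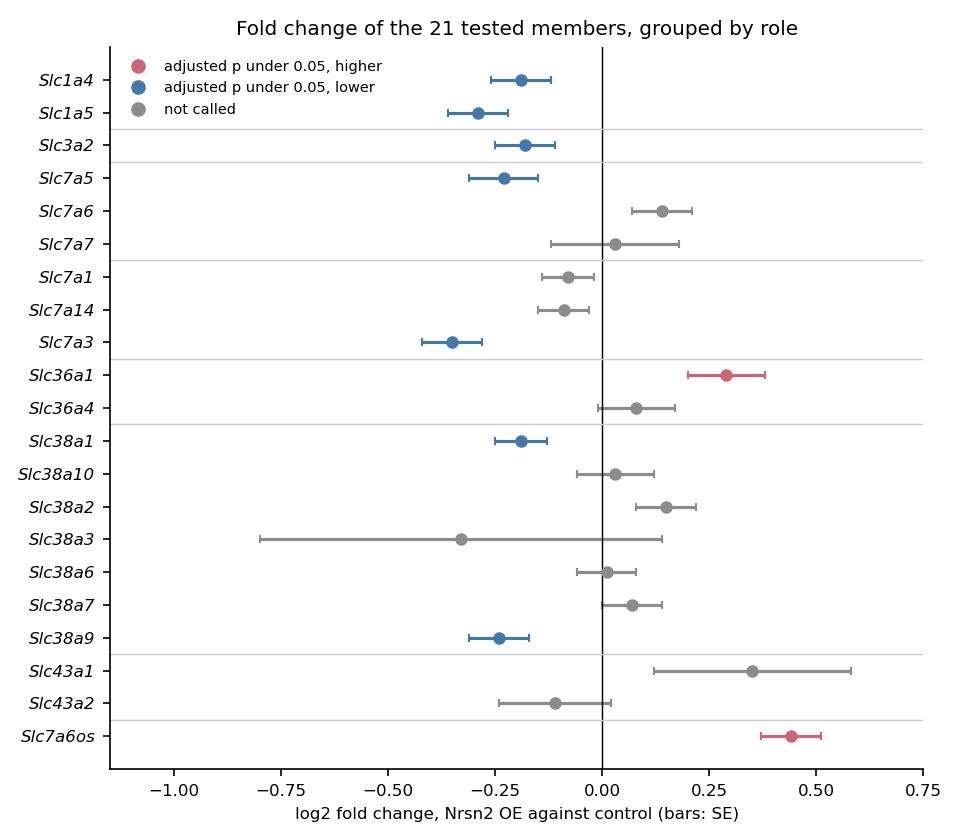
Log2 fold change of Nrsn2 OE against control with its SE for the 21 tested genes, grouped by role between the grey lines and coloured by call. The 7 lower transporters lie between -0.35 and -0.18, and Slc36a1 (0.29) and Slc7a6os (0.44) are the genes called higher.

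The 2 tested SLC1 genes, both carriers of neutral amino acids, were lower. Slc1a5 encodes ASCT2, which exchanges glutamine and other neutral amino acids (ENSMUSG00000001918; GRCm39 chromosome 7, 16515265 to 16532199). It was at 119, 130, 131 and 138 CPM in control libraries 1 to 4 and at 114, 107, 104 and 99.3 CPM in Nrsn2 OE libraries 1 to 4. Every Nrsn2 OE library lay below every control. Its log2 fold change was -0.29 ± 0.07 (SE, n = 4 each; edgeR adjusted p = 0.00233), and it passed under all 17 alternative settings. Slc1a4 encodes ASCT1, a carrier of alanine, serine and cysteine (ENSMUSG00000020142; chromosome 11, 20252180 to 20282713). It was at 105, 102, 94.5 and 115 CPM in the control libraries and at 87.4, 94.7, 94.1 and 90.0 CPM in the Nrsn2 OE libraries, so that control library 3 lay just below Nrsn2 OE library 2. Its log2 fold change was -0.19 ± 0.07 (edgeR adjusted p = 0.0372). The call rested on single libraries, with an adjusted p of 0.0656, 0.0520 or 0.123 without control library 1, 2 or 4, and of 0.0683, 0.0631 or 0.0945 without Nrsn2 OE library 1, 3 or 4. With no low-count filter it was 0.0844.

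The promoter of Slc1a4 is shown because Slc1a4 was called and its window holds a match to the amino acid response motif. Promoter windows run from 250 bases before to 50 after a RefSeq transcript start and come from RefSeq on GRCm38.p6, an older build than that of the gene positions. Of the 21 tested genes, 16 had a window, among them only 4 of the called transporters. Slc1a5, Slc7a3, Slc7a5, Slc38a1 and Slc38a3 had none, so their promoters were not searched. Both strands were searched for 3 motifs, chosen after the data were seen. In the printed windows no match overlaps another. TGATGNAA is the C/EBP-ATF response element CARE, which ATF4 binds in genes induced by amino acid shortage. CACGTG is the E-box core, read by MYC and by TFEB, a regulator of lysosome genes. GGGCGG is the GC box. Of 32851 mouse windows, 3.97% held a CARE match, 7.15% an E-box and 35.7% a GC box. Capitals mark the matches. The Slc1a4 window (chr11:20332664-20332963, minus strand) holds 1 CARE match, which begins 4 bases before the start, and 3 GC boxes. A CARE match was present in 3 of the 23 windows of the tested genes, and the other 2 belong to Slc7a7, which was not called. Those 2 windows overlap and share a match, 1 base before one start and 243 bases before the other, so this site is counted in both.
Slc1a4: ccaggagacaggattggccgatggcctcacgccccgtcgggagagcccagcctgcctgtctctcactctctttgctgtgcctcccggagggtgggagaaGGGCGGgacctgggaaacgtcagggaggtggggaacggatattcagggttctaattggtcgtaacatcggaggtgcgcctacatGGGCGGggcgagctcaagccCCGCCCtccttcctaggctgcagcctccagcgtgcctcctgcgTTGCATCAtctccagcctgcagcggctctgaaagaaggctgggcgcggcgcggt

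Heavy and light chains of the heteromeric carriers were represented by Slc3a2 and, among light chains, Slc7a5, Slc7a6 and Slc7a7. Slc3a2 encodes the heavy chain CD98hc (ENSMUSG00000010095; chromosome 19, 8684246 to 8700733). It was at 273, 303, 276 and 315 CPM in the control libraries and at 286, 257, 245 and 239 CPM in the Nrsn2 OE libraries. Nrsn2 OE library 1 lay among the controls and the other 3 below them. Its log2 fold change was -0.18 ± 0.07 (edgeR adjusted p = 0.0493), just inside the threshold. The adjusted p was 0.106 or 0.124 without control library 2 or 4, 0.0890, 0.143 or 0.157 without Nrsn2 OE library 2, 3 or 4, and 0.0733 with no low-count filter. Slc7a5, or LAT1, carries leucine and other large neutral amino acids (ENSMUSG00000040010; chromosome 8, 122607889 to 122634433). It was at 466, 592, 528 and 611 CPM in the control libraries and at 498, 467, 442 and 461 CPM in the Nrsn2 OE libraries. Control library 1 was low and lay within the range of the Nrsn2 OE libraries. The log2 fold change was -0.23 ± 0.08 (edgeR adjusted p = 0.0262). The call was lost without control library 2 (0.0813) or 4 (0.0822), or Nrsn2 OE library 2 (0.0529), 3 (0.0871) or 4 (0.0634).

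The level of Slc7a5 relative to its heavy chain overlapped between the groups. Per kilobase, Slc7a5 stood at 1.79 ± 0.110 times Slc3a2 in the control and 1.73 ± 0.0725 times in the Nrsn2 OE libraries (SD, n = 4 each). This pair was among 6 ratios chosen after the values were seen, and none was tested. The groups overlapped in 4 of them. Besides this pair these were Slc1a5 over Slc1a4 (1.17 ± 0.102 and 1.09 ± 0.0914), Slc36a1 over Slc36a4 (3.08 ± 0.427 and 3.54 ± 0.599) and Slc7a6 over Slc7a5 (0.13 ± 0.0251 and 0.166 ± 0.00492). Slc7a6 and Slc7a7 exchange cationic for neutral amino acids, and neither passed. Slc7a6 was at 94.2, 88.8, 85.6 and 78.3 CPM in the control libraries and at 99.9, 93.1, 93.8 and 95.6 CPM in the Nrsn2 OE libraries. Only control library 1 lay within the range of the Nrsn2 OE group. The fitted log2 fold change was 0.14 ± 0.07 (edgeR adjusted p = 0.103). Slc7a7 was scarce, at 3.94 to 5.34 CPM in the control libraries and 4.24 to 5.35 CPM in the Nrsn2 OE libraries, and part of its exons overlaps Oxa1l on the other strand, from which reads of this unstranded kit cannot be told apart.

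The promoter of Slc3a2 is shown as that of the heavy chain on which all these light chains depend. The window (chr19:8713848-8714147, minus strand) holds 2 GC boxes and no CARE or E-box match in these letters.
Slc3a2: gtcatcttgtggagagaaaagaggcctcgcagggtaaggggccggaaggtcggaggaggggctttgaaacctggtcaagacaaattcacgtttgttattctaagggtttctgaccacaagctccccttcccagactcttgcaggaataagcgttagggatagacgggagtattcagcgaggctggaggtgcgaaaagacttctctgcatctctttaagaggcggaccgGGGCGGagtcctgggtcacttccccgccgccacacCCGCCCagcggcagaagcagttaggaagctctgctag

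Among the carriers of cationic amino acids, Slc7a3 was lower. Slc7a3 encodes CAT3, an arginine and lysine carrier known from brain (ENSMUSG00000031297; chromosome X, 100122816 to 100129626). It was at 97.9, 99.9, 106 and 114 CPM in the control libraries and at 90.0, 79.3, 83.8 and 73.7 CPM in the Nrsn2 OE libraries. Every Nrsn2 OE library lay below every control. Its log2 fold change of -0.35 ± 0.07 (edgeR adjusted p = 0.000967) was the largest fall among the 20 tested transporters, and it passed under all 17 alternative settings. Slc7a1, the widely expressed arginine carrier CAT1, was at 276, 286, 263 and 274 CPM in the control, and no Nrsn2 OE library was above 266 CPM, with overlapping groups. Its log2 fold change was -0.08 ± 0.06 and did not pass (edgeR adjusted p = 0.313; 95% interval from -0.19 to 0.04). Slc7a14, a CAT relative of intracellular membranes, had a log2 fold change of -0.09 ± 0.06 (edgeR adjusted p = 0.306). Slc7a3 per kilobase stood at 1.16 ± 0.103 times Slc7a1 in the control and 0.956 ± 0.0617 times in the Nrsn2 OE libraries. The groups did not overlap in this ratio, which was chosen after the values were seen and not tested.

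The proton-coupled carrier Slc36a1 was the transporter that rose. Slc36a1 encodes PAT1, which moves small amino acids out of lysosomes and into cells (ENSMUSG00000020261; chromosome 11, 55095176 to 55127156). It was at 124, 123, 114 and 108 CPM in the control libraries and at 115, 170, 144 and 146 CPM in the Nrsn2 OE libraries. Nrsn2 OE library 1 lay among the controls and the other 3 above them, with library 2 highest. The log2 fold change was 0.29 ± 0.09 (edgeR adjusted p = 0.0167). The call was lost without control library 3 (0.0515) or 4 (0.0577) or Nrsn2 OE library 2 (0.0773). Slc36a4, a carrier of the same family with high affinity for proline and tryptophan, was at 38.6 to 52.8 CPM in the control libraries and 45.7 to 51.1 CPM in the Nrsn2 OE libraries. Its log2 fold change was 0.08 ± 0.09 (edgeR adjusted p = 0.515; 95% interval from -0.09 to 0.25).

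The Slc36a1 promoter is shown because it belongs to the transporter that rose and holds 2 E-box matches, the most of any window of the tested genes. The window (chr11:55204090-55204389, plus strand) has them starting 31 and 3 bases before the start, and it holds no GC box. An E-box match was present in 4 of the 23 windows of the tested genes. The other 3 belong to Slc7a14, Slc38a7 and Slc43a1, none of which was called.
Slc36a1: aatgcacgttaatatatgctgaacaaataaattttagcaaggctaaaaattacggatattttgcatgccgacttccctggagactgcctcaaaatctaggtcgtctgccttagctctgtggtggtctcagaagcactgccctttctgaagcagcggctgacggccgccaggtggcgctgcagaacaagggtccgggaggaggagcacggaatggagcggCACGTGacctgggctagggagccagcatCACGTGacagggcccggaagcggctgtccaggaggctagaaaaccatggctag

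The SLC38 family held 7 tested genes, of which Slc38a1 and Slc38a9 were lower (28.6%, against 16.8% of all tested genes) and none higher (against 18.6%). Slc38a1 encodes SNAT1, a sodium-driven glutamine carrier of neurons (ENSMUSG00000023169; chromosome 15, 96469299 to 96540794). It was at 608, 566, 575 and 546 CPM in the control libraries and at 493, 511, 508 and 499 CPM in the Nrsn2 OE libraries. Every Nrsn2 OE library lay below every control. The fitted log2 fold change was -0.19 ± 0.06 (edgeR adjusted p = 0.0197), and the adjusted p was 0.0535 without control library 1, 0.0547 without Nrsn2 OE library 4 and 0.0576 with no low-count filter. Of its 31-mers, 6.94% were shared with other genes. Slc38a2 encodes SNAT2, whose gene neighbours Slc38a1 and is known to be induced by amino acid shortage (ENSMUSG00000022462; chromosome 15, 96585273 to 96597611). It was at 723, 635, 615 and 666 CPM in the control libraries and at 761, 743, 695 and 726 CPM in the Nrsn2 OE libraries. Control library 1 was the only control within the range of the Nrsn2 OE libraries. The log2 fold change was 0.15 ± 0.07 (edgeR adjusted p = 0.0926). It passed with offsets for GC content and transcript length (log2 fold change 0.22; adjusted p = 0.00467) and without control library 1 (0.19; adjusted p = 0.0344).

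The ratio of these neighbours did not overlap between the groups. Per kilobase, Slc38a2 stood at 2.32, 2.19, 2.09 and 2.38 times Slc38a1 in control libraries 1 to 4. In Nrsn2 OE libraries 1 to 4 the ratio was 3.01, 2.84, 2.67 and 2.84. The lowest Nrsn2 OE value lay above the highest control value. The size of the ratio rests on annotated exon lengths of 8838 bases for Slc38a2 and 17236 for Slc38a1, the same in both groups. This pair was chosen after the values were seen, so the difference was not tested.

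**Figure D3:**
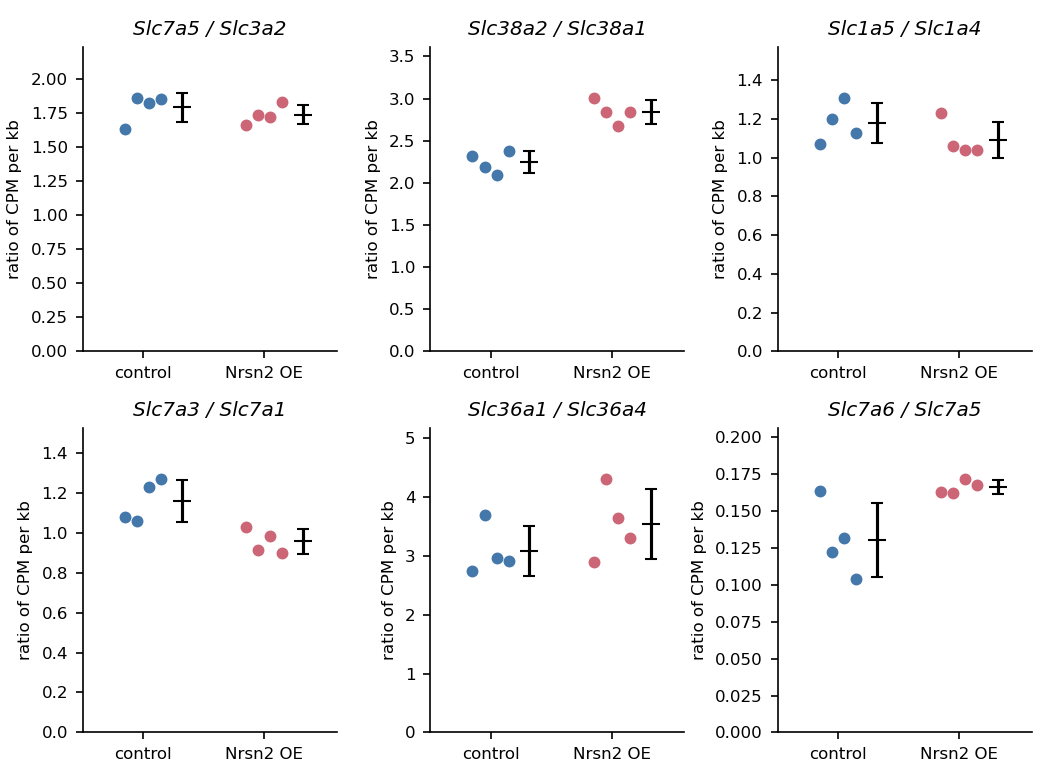
Ratio of levels in CPM per kilobase for 6 pairs of genes, with 1 point a library and the mean ± SD beside the 4 libraries of each group. The groups overlap in 4 pairs, while Slc38a2 over Slc38a1 is higher in all Nrsn2 OE libraries (2.67 to 3.01 against 2.09 to 2.38), and Slc7a3 over Slc7a1 is lower in all of them.

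Slc38a9 was the other member of the family to fall. It encodes a lysosomal membrane protein that senses arginine for mTORC1 (ENSMUSG00000047789; chromosome 13, 112797285 to 112875283). It was at 37.7, 35.9, 37.2 and 38.8 CPM in the control libraries and at 32.1, 32.5, 32.4 and 29.9 CPM in the Nrsn2 OE libraries. The groups did not overlap, and the spread within each was narrow. The fitted log2 fold change was -0.24 ± 0.07 (edgeR adjusted p = 0.0143). With offsets for GC content and transcript length it was -0.16 and did not pass (adjusted p = 0.0630), nor did it without Nrsn2 OE library 4 (-0.21; adjusted p = 0.0564). Its promoter, shown as that of the lysosomal sensor, is at chr13:112660516-112660815 on the plus strand and holds 1 GC box and no CARE or E-box match in these letters.
Slc38a9: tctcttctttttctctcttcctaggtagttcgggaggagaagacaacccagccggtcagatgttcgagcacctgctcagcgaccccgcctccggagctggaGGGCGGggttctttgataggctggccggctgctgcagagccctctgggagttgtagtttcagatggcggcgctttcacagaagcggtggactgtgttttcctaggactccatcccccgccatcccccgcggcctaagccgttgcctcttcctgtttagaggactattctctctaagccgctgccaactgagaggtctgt

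The other SLC38 genes did not pass. Slc38a7, a glutamine carrier of the lysosome, was at 62.2 to 75.5 CPM in the control libraries and 68.9 to 74.6 CPM in the Nrsn2 OE libraries (log2 fold change 0.07 ± 0.07; edgeR adjusted p = 0.488). Slc38a6 was at 1120 to 1280 CPM and 1090 to 1280 CPM, and Slc38a10, a little studied member, at 26.4 to 28.1 CPM and 25.0 to 32.5 CPM. Fitted changes on the log2 scale were 0.01 ± 0.07 and 0.03 ± 0.09, with 95% intervals from -0.13 to 0.16 and from -0.14 to 0.20. Slc38a3, a system N glutamine carrier, was barely above the filter at 0.200 to 1.18 CPM in the control libraries and 0.220 to 0.837 CPM in the Nrsn2 OE libraries (log2 fold change -0.33 ± 0.47).

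Neither tested gene of the SLC43 family passed. Slc43a1, the leucine carrier LAT3, was at 1.27 to 2.67 CPM in the control libraries and 1.87 to 2.46 CPM in the Nrsn2 OE libraries. At this depth its log2 fold change of 0.35 ± 0.23 had a 95% interval from -0.10 to 0.80, so a sizeable change could not be told from none. Slc43a2, the related LAT4, was at 6.61 to 8.67 CPM and 5.97 to 7.55 CPM, a log2 fold change of -0.11 ± 0.13 that did not pass (edgeR adjusted p = 0.536). Of its 31-mers, 9.43% were shared with other genes, mostly with the overlapping noncoding gene Gm45606, which held 1 to 10 counts a library.

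**Figure D4:**
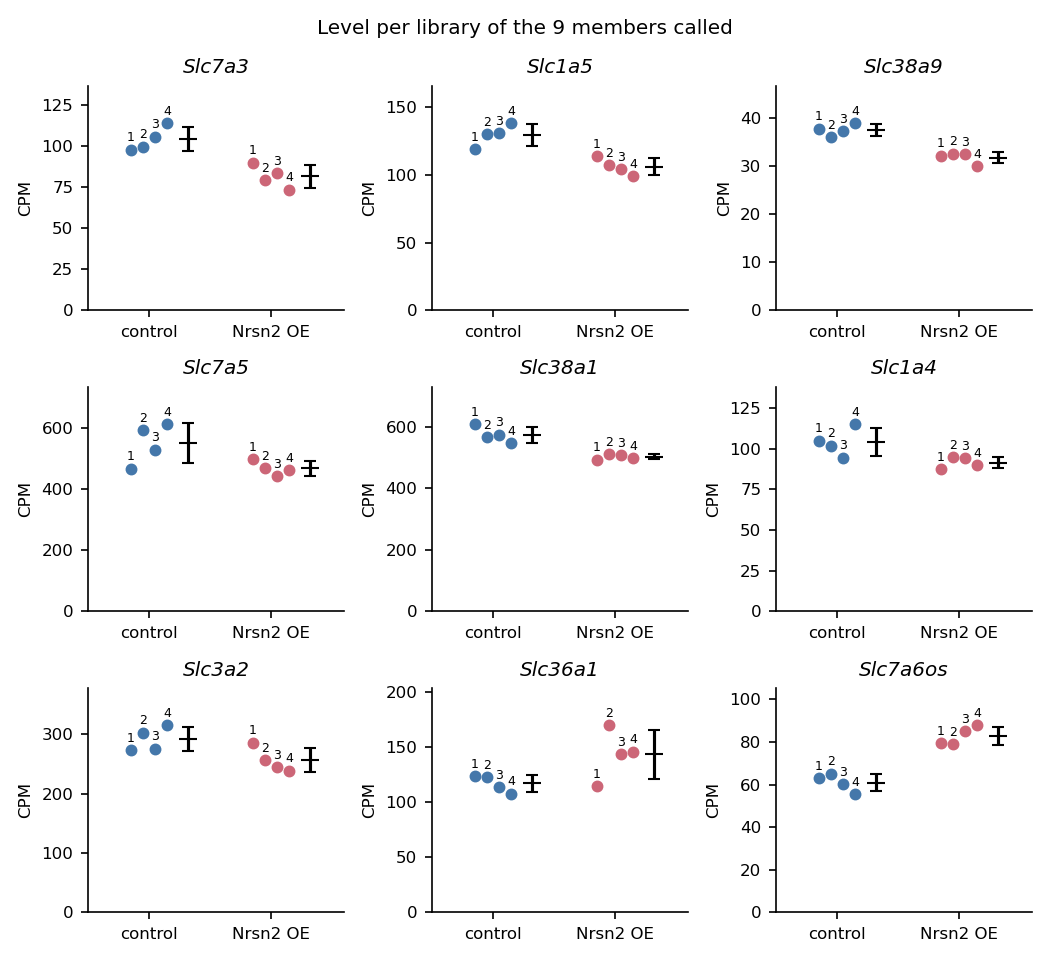
CPM of the 9 called genes in each library, numbered by replicate, with the mean ± SD beside each group of 4 libraries (axes start at 0). Slc7a3, Slc1a5, Slc38a9 and Slc38a1 are lower and Slc7a6os higher without overlap, while for Slc7a5, Slc1a4, Slc3a2 and Slc36a1 the groups overlap.

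Slc7a6os, the gene that matched by name only, had a larger log2 fold change than any of the 20 tested transporters. Its counterpart in yeast, Iwr1, directs RNA polymerase II into the nucleus. The gene lies beside Slc7a6 without overlapping it (ENSMUSG00000033106; chromosome 8, 106927349 to 106937567, against 106895489 to 106925338). It was at 62.9, 65.2, 60.3 and 55.5 CPM in the control libraries and at 79.4, 78.9, 85.2 and 87.8 CPM in the Nrsn2 OE libraries. Every Nrsn2 OE library lay above every control. The log2 fold change was 0.44 ± 0.07 (edgeR adjusted p = 9.66e-05), and it passed under all 17 alternative settings. Its promoter, shown because its change was the largest, is at chr8:106210884-106211183 on the minus strand and holds 1 GC box.
Slc7a6os: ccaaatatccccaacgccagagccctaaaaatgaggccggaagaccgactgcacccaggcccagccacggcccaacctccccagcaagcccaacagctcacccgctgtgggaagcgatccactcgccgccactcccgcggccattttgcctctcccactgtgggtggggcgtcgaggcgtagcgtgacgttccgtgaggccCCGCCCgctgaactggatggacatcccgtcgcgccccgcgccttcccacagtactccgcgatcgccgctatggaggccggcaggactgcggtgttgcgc

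The related lists described from here on were chosen with earlier results of these data known, so their shares are descriptions and not tests. A list of mTORC1 subunits and of proteins that act upstream of the complex, amino acid sensors among them, had more higher than lower calls. Of the 39 genes that were tested, 15 were higher (38.5%, against 18.6% of all tested genes) and 5 lower (12.8%, against 16.8%), with a median log2 fold change of 0.12. Flcn, which encodes folliculin and acts on the Rag GTPases, was at 19.8 ± 1.43 CPM in the control libraries and 35.7 ± 1.06 CPM in the Nrsn2 OE libraries (log2 fold change 0.85 ± 0.08; edgeR adjusted p = 6.72e-07). Rragc, a Rag GTPase, rose from 48.8 ± 3.22 to 73.1 ± 7.88 CPM (0.58 ± 0.08). Akt1s1, the mTORC1 inhibitor PRAS40, rose by a log2 fold change of 1.06 ± 0.20. In each of these 3 genes the groups did not overlap. Akt1s1 and 3 more of the 15 higher genes encode parts of mTORC1 itself and are not amino acid sensors. Those 3, named after their values were seen, were Mtor (0.26 ± 0.06), Rptor (0.23 ± 0.07) and Mlst8 (0.44 ± 0.13).

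In the list of regulators of these carriers, 7 of 22 tested genes were higher (31.8%, against 18.6% of all tested genes) and 2 lower (9.09%, against 16.8%), with a median log2 fold change of 0.13. Impact, an inhibitor of the amino acid sensing kinase GCN2, rose from 123 ± 6.36 to 179 ± 7.12 CPM (log2 fold change 0.54 ± 0.06). Gcn1, an activator of the same kinase, rose from 69.8 ± 7.33 to 93.4 ± 8.67 CPM (0.42 ± 0.08). Ddit3, the stress factor CHOP, rose (0.58 ± 0.11), and Cebpg, a partner of ATF4 on CARE sites, fell (-0.36 ± 0.08; edgeR adjusted p = 0.00135). Named after their values were seen, Atf4 (0.08 ± 0.07), Myc (0.13 ± 0.08) and Tfeb (-0.07 ± 0.18) were not called.

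Enzymes of glutamate, glutamine and asparagine had more lower than higher calls, with 5 of 14 tested lower (35.7%, against 16.8% of all tested genes), 1 higher (7.14%, against 18.6%) and a median log2 fold change of -0.20. The 3 with the smallest p were Gpt2, the mitochondrial alanine transaminase (-0.33 ± 0.06), Got1, the cytosolic aspartate transaminase (-0.35 ± 0.09), and Aldh18a1, an enzyme of proline synthesis. Aldh18a1 fell from 92.8 ± 7.62 to 77.4 ± 5.37 CPM (-0.26 ± 0.07; edgeR adjusted p = 0.00837). In the list of carriers from other families, 3 of 19 tested were higher and 3 lower, near the background shares, with a median of -0.02. The mitochondrial carriers Slc25a44 (branched-chain amino acids) and Slc25a38 (glycine) rose by 0.56 ± 0.09 and 0.57 ± 0.12. Slc6a6, which carries taurine, and Slc6a8, which carries creatine, fell (-0.38 ± 0.07 and -0.31 ± 0.08).

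**Figure D5:**
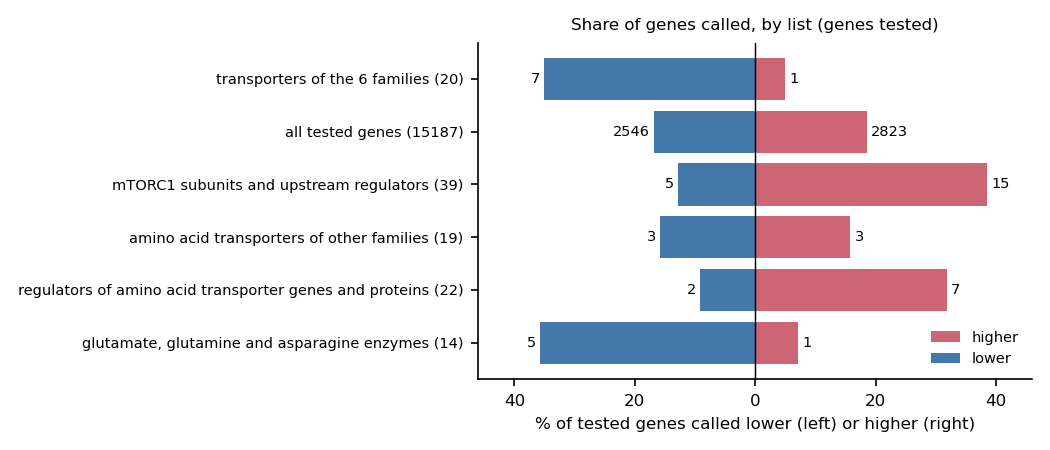
Percent of tested genes called lower (left) or higher (right) for the 20 transporters, 4 related lists and all tested genes, with the number called beside each bar and the number tested in parentheses. The transporters have 35.0% lower and 5.00% higher, against 16.8% and 18.6% of all tested genes. The families and lists were chosen with earlier results of these data known.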

How the data were processed

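The table deposited by the authors gives raw read counts, 1 column for each of 8 libraries, by Ensembl gene ID, per the file headers. Per the submitters' processing notes, the build was GRCm39 and the tools were DESeq2 1.36.0, HTSeq 2.01, TopHat2 2.1.1 and cutadapt 2.10. What each did, the annotation, and the settings for strand and multimapping were not given in the sources used here. The library kit named in the labels does not mark strand. The authors also deposited a normalized signal (counts divided by size factors), log2 fold changes and their standard errors, a Wald score, and a p-value with its adjusted p-value, per the file headers. Of 55414 genes, 6250 had no counts listed.

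Groups were compared with edgeR 4.0.16 (R 4.3.3): filterByExpr at a minimum count of 10, TMM, quasi-likelihood F test without covariates, and Benjamini-Hochberg adjustment over all 15187 tested genes. SEs were derived from the F statistic, and 95% intervals of fold changes from those SEs by a normal approximation. The comparison was run on simulated counts with known changes and the same variation for every gene and library, a simpler case than these data. Within each group, libraries varied beyond counting noise (chi-square per degree of freedom 2.58 to 15.9). Exon lengths, GC content and shared 31-mers came from GENCODE vM21 (GRCm38), matched by gene ID (99.8% of tested genes). No set test was run. Named genes were Nrsn2, all members, and the 4 tested genes with the smallest p of each related list, of which 2 are not reported here. The members and lists were chosen with earlier results of these data known. Alternatives were DESeq2 1.42.0, limma-voom (limma 3.58.1), other scaling factors and filters, GC content and length offsets, a replicate block, and each library left out.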

Additional observations from a re-analysis of the deposited data

Results flagged for a closer look

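Of 42 groups of 4 libraries (21 genes in 2 groups), 3 held a library far from the other 3, which is about what chance gives at 1 in 20. Nrsn2 OE library 4 was high for Slc36a4, at 51.1 CPM against 45.7 to 46 CPM in the other 3. The same library was low for Slc38a9, at 29.9 CPM against 32.1 to 32.5 CPM. Nrsn2 OE library 1 was low for Slc43a2, at 5.97 CPM against 7.38 to 7.55 CPM.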

How the results depend on the processing

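Slc1a5 (log2 fold change -0.36 to -0.26), Slc7a3 (-0.40 to -0.31) and Slc7a6os (0.39 to 0.49) passed under all 17 alternatives. The number of transporters lower, 7, was 4 with no low-count filter and 2 to 7 with 1 library left out. The number higher, 1, was 2 with GC content and length offsets, 0 to 2 with 1 library left out, and 2 with Slc7a6os counted, a choice added after the data were seen. Also added then, keeping genes with under 5% of shared 31-mers gave 1 higher and 6 lower. Some log2 fold changes that were not called turned in sign. With the offsets, Slc38a10 was at -0.036, Slc38a7 at -0.0022 and Slc7a7 at -0.045. With 1 library left out, values ran from -0.047 to 0.082 for Slc38a10, -0.67 to 0.28 for Slc38a3, -0.025 to 0.062 for Slc38a6 and -0.035 to 0.12 for Slc7a7. The cause was not tested. By CPM in place of CPM per kilobase, Slc38a2 was at place 2 and not 4, and Slc38a1 at place 3 and not 5.

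Deviations of same-numbered libraries had correlations of -0.102, -0.0349, 0.0587 and -0.0769, which gave no sign that the replicate numbers pair the libraries. With 4 libraries in each group this cannot show that they were not paired. With a replicate block, 5 transporters were lower and 1 higher, without Slc1a4 (adjusted p = 0.0577) and Slc3a2 (0.0754). With the block and the GC content and length offsets, 6 were lower, without Slc38a9 (-0.16; adjusted p = 0.104). The 1 higher there was Slc38a2 (0.22; adjusted p = 0.00788) and not Slc36a1 (0.22; adjusted p = 0.0611). In that last fit Slc38a10 was at -0.041 and Slc7a7 at -0.041.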
